A study of Drosophila melanogaster with 2 samples.

Results

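Clusters of neighbouring Sequoia binding sites were collected from ChIP-seq peaks of whole Drosophila melanogaster embryos. A cluster was a run of 4 or more peak summits on 1 chromosome arm, each less than 3000 bp from the next, counting peaks with a signal of 60 or more in the conservative list of the series. This rule found 40 clusters that held 185 of the 3817 peaks past that signal (4.85%), out of 4099 conservative peaks on the arms. The embryos were 0 to 24 h old and came from a transgenic strain that carries an eGFP fusion of seq, and an anti-GFP antibody was used for the immunoprecipitation. The series has 1 such group, with 2 biological replicates and no other genotype or condition. The labels give seq as the target of the insertion and do not state which regulatory sequence drives the fusion. The embryos were used whole, so binding in few cells and weak binding in many cells cannot be told apart.

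Sequoia, the product of seq, is a zinc finger protein of the nervous system, and neurons that lack it form abnormal axons and dendrites. Peaks that stand close together can mark several separate regulatory elements of 1 gene, such as alternative promoters and enhancers in its introns. They can also mark a broad bound stretch that a peak caller divides. Signal is the value that the authors' peak caller gave a peak, and it ranks peaks within a list. Members were chosen by signal and position, so both are described here without a test, and peaks of 1 cluster share their chromatin and are not replicates.

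Most clusters were small, and a few long ones stood in genes of the X chromosome. Of the 40 clusters, 26 had 4 peaks, 9 had 5 and 2 had 6, and there was 1 each of 7, 8 and 9. The largest lay in CHES-1-like, a forkhead transcription factor gene (9 peaks), in and beside Raf, the gene of the kinase that links Ras to MAP kinase signalling (8 peaks), and in and beside ph-p, a Polycomb group gene (7 peaks). From first to last summit a cluster spanned 1266 bp at CG9663 to 12838 bp at Raf, with a median of 4979 bp. Only the clusters at Raf and CHES-1-like (12123 bp) were longer than 10000 bp. The plot of all clusters shows the spacing of their summits.

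**Figure D1:**
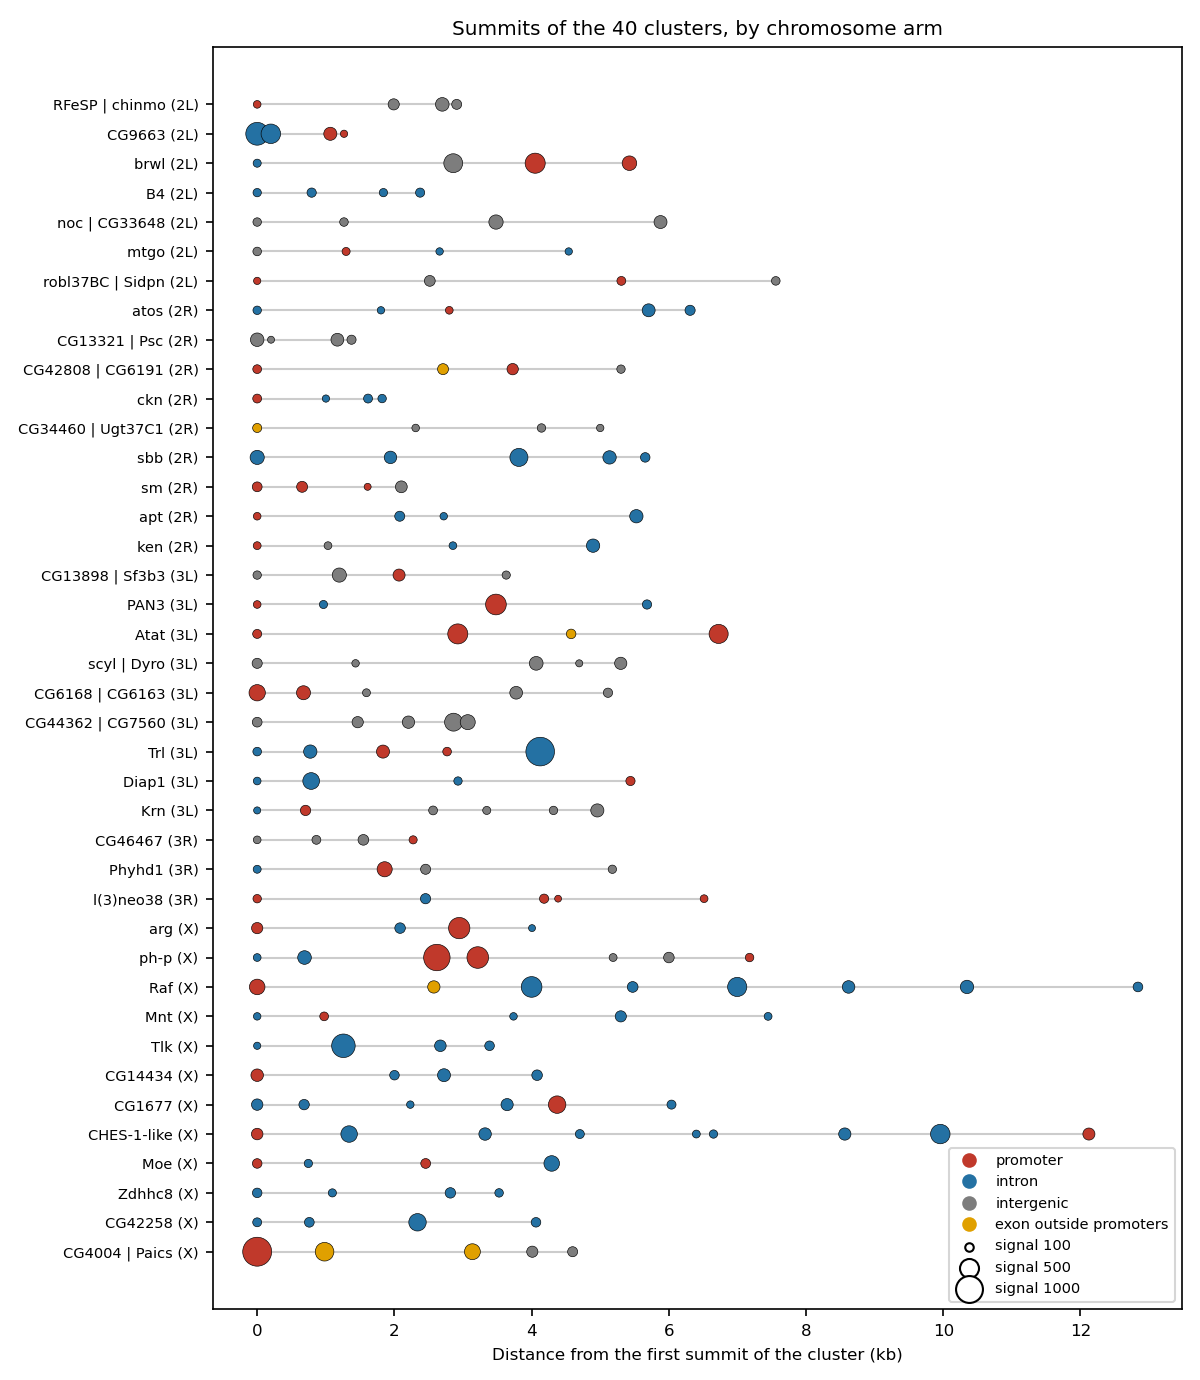
Each line is 1 of the 40 clusters, named by the protein-coding gene with most of its summits or, with a bar between the names, by the protein-coding genes on either side, with the chromosome arm in brackets. The x axis gives the distance from the first summit in kb, point area is proportional to the authors' signal, and colour gives the position of the summit. The clusters at Raf and CHES-1-like reach past 12 kb.

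The sequences under the 5 strongest summits, 1 from each of 5 clusters, are shown because they carry the highest signal of all members. Each runs 50 bp either side of the summit on the plus strand of dm6. They were chrX:12751346-12751446 beside lncRNA:CR44619 (signal 1157), chr3L:14759455-14759555 in an intron of Trl (1132), chrX:2137275-2137375 in ph-p (966), chrX:3742176-3742276 in an intron of Tlk (766) and chr2L:3302137-3302237 in CG9663 (719). Capitals would mark any word that was searched on both strands. These were GAGAGA for GAGA factor, the repeat CACACA, the homeodomain core TAATTA, the early embryonic word CAGGTA, the E-boxes CAGGTG and then CAGCTG, the GATA word AGATAA, the housekeeping promoter word TATCGATA and the word ACAGTG. None of these windows holds one.
lncRNA:CR44619: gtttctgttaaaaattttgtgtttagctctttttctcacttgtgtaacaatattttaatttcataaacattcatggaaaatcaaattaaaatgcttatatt
Trl: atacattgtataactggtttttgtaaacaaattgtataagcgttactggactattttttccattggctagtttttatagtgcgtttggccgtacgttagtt
ph-p: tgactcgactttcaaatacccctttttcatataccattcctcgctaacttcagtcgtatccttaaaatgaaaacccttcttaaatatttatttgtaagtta
Tlk: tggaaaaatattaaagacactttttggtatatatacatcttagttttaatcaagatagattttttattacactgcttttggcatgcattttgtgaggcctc
CG9663: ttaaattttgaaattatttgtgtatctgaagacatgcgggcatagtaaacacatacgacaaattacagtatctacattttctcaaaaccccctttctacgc
All 5 were rich in A and T, with a G and C content from 21.8% beside lncRNA:CR44619 to 33.7% at CG9663. The median over all members was 34.7%, the same as for the other peaks, and within 200 bp of the summit it was 40.1% against 40.6%.

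Clusters were held by 29 protein-coding genes, 0.208% of the 13968 in the annotation. A gene held a cluster when more of the summits lay inside that gene than inside any other, with ties going to the shorter gene. In brwl, Krn, CG46467 and Phyhd1 that was 1 summit. In 15 clusters every summit lay inside 1 gene, in 14 only some did, and in 11 no summit lay inside a protein-coding gene. Each holding gene had 1 cluster. The genes were long, with a median of 19274 bp, against 11789 bp for the 1528 protein-coding genes with at least 1 summit and 2165 bp for all protein-coding genes. Of 87 genes of 100000 bp or more, 4 held a cluster (4.60%): CG1677, mtgo, CG46467 and sm. Of 11983 genes under 10000 bp, 5 did (0.0417%): CG9663, ken, Krn, brwl and Phyhd1. Among the 4 of 100000 bp or more, CG1677 held all 6 summits of its cluster, mtgo and sm 2 of 4 each and CG46467 1 of 4. A long gene offers more room for summits, and no test that allows for length was made.

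**Figure D2:**
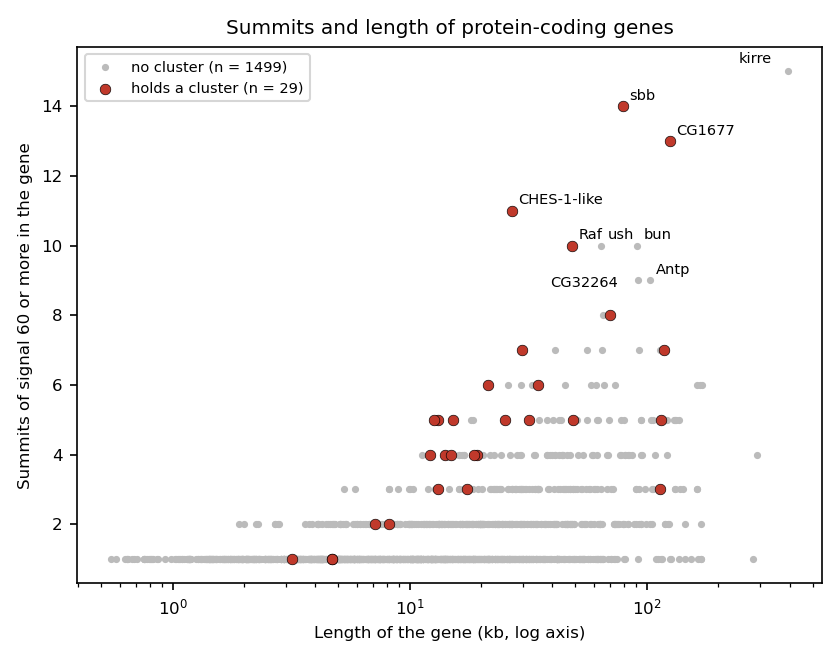
Each point is a protein-coding gene with at least 1 summit, with its length in kb on a log axis and its number of summits of signal 60 or more. The 29 genes that hold a cluster are in red. The gene with most summits, kirre, had 15 and no cluster.

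Many summits in a gene did not make a cluster. The cell adhesion gene kirre had 15 summits over 394149 bp and no cluster. The GATA cofactor gene ush and the growth regulator gene bun had 10 each without one, and the Hox gene Antp had 9. In sbb, which encodes a transcriptional corepressor, 5 of 14 summits formed the cluster, and in CG1677 it was 6 of 13. In CHES-1-like, by contrast, 9 of 11 summits over 27048 bp stood in 1 cluster.

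In CHES-1-like (X:7682338-7709385, minus strand) the members ran through the upstream part of the gene. Counted from its 5′ end, the summits lay at 193, 2359, 3751, 5665, 5915, 7613, 8994, 10976 and 12316 bp. The strongest was the second of these (X:7706850-7707155, signal 524), in an intron, with 252 in replicate 1 and 278 in replicate 2. The next, at 10976 bp (signal 376), had 191 and 181. The weakest was the member at 5915 bp (signal 86.0), close to the one at 5665 bp (96.4). The summits at both ends of the cluster stood within 500 bp of transcription start sites (TSSs) of the gene, which has several. All 9 members overlapped a peak of replicate 1's own list and 7 overlapped one of replicate 2's. The members at 5665 and 5915 bp share 1 peak of replicate 1's full ranked list (57.8), so that list has 8 peaks for the 9 members.

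In Raf (X:2295466-2343870, plus strand) 7 of 8 summits lay inside the gene. The first stood at -1745 bp from its 5′ end and 310 bp upstream of the TSS of CG2865 (signal 335, 167 in replicate 1 and 180 in replicate 2). The next, in the 5′ untranslated region 830 bp into Raf, reached 210, and the other 6 were in introns down to 11093 bp. The strongest of these, at 2255 bp, reached 590 (replicate 1, 291, and replicate 2, 298). The other strong one, at 5252 bp, reached 509 (273 and 241). Every one of the 8 was present in both replicates' own lists. Signal was spread over the Raf members, with 24.6% of the summed signal in the strongest, the lowest such share of the 40 clusters.

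The chromatin regulator genes Trl and ph-p held clusters with 1 or 2 dominant peaks. Trl encodes GAGA factor, which binds GA-rich promoters and opens chromatin. Its 5 summits lay between 1544 and 5669 bp from the 5′ end of the gene (3L:14747929-14761049, minus strand). That at 1544 bp, in an intron, was rank 9 of all conservative peaks (signal 1132, with 569 in replicate 1 and 574 in replicate 2) and took 62.2% of the summed signal of the cluster. At ph-p, which encodes a subunit of the Polycomb repressive complex that keeps development genes silent, the summits at 450 and 1046 bp had signals of 644 and 966. In replicate 1 they had 289 and 444, and in replicate 2 they had 364 and 542, higher in replicate 2 for both. The 3 summits upstream of ph-p, by contrast, were higher in replicate 1: 57.9 against 32.8, 111 against 44.9 and 62.6 against 36.5. The last of these lay at the start of D2hgdh, and none of the 3 was in replicate 2's own list. The summit at 3665 bp, inside ph-p, was also higher in replicate 1 (67.1 against 38.6) and absent from replicate 2's own list. That at 2975 bp had 117 in replicate 1 and 138 in replicate 2. Another cluster, on 2R, stood 2448 bp from CG13321 and, on its other side, 6462 bp from Psc, a further Polycomb group gene. The TSS nearest to each of its 4 intergenic summits (signals 67.8 to 252) was that of CG13321.

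**Figure D3:**
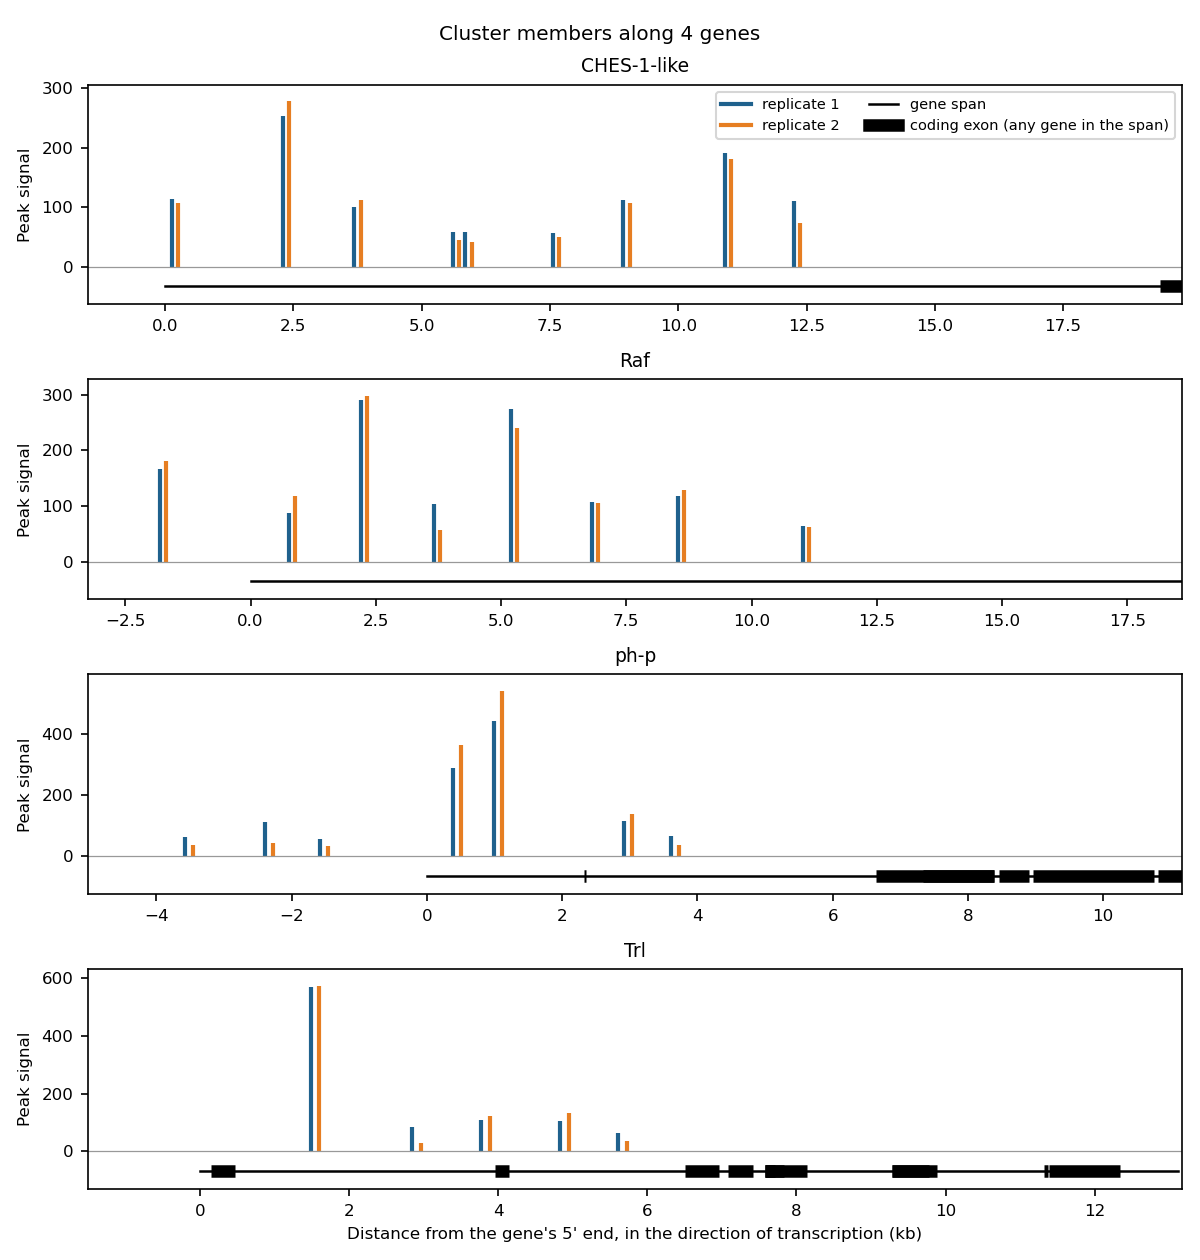
Vertical bars give the authors' signal of each cluster member in replicate 1 (blue) and replicate 2 (orange), against the distance in kb from the 5′ end of the gene in the direction of transcription. The black line is the gene span, cut off at the right where the gene is longer, and thick parts are coding exons of any gene in that span. In CHES-1-like the bars stand upstream of the coding exons, and in the stretch of Raf drawn there is no coding exon.

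Other genes of transcription and signalling held clusters of 4 to 6 peaks. The grouping here was made after their values were seen. In sbb all 5 members lay in introns, 18283 bp or more from any TSS, and their signals ran from 126 to 451. Mnt, whose product competes with Myc for a shared partner, had 5 members of 78.2 to 173. The zinc finger gene l(3)neo38 had 5 of 65.2 to 145, and all but 1 of them were higher in replicate 1. Its summed signal was 365 in replicate 1 and 187 in replicate 2, where 2 of the members share a peak that is counted once. In apt, a transcription factor gene of head and tracheal development, 3 of 4 summits lay inside the gene, and in ken, a BTB zinc finger repressor gene, 2 of 4 did. Their strongest members, both in introns, each reached 246. Krn encodes a ligand of the EGF receptor. It had 1 summit inside the gene and 1 at its promoter, 46 bp upstream of the TSS (signal 148). The other 4 were intergenic and lay beyond a further gene, CG7484, whose TSS was the nearest to each of them. The strongest of the 6 members was the farthest from Krn and 1239 bp from Crtc (238, with 131 in replicate 1 and 110 in replicate 2). In Tlk, which encodes a kinase of chromatin assembly, 1 summit of 766 (427 and 336) stood out from 3 of 72.3 to 186. In Diap1, an inhibitor of apoptosis gene, 1 of 386 (190 and 183) stood out from 3 of 82.0 to 118.

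Further clusters lay in genes of varied roles. The cluster named for arginase gene arg also lies over elav, the gene of a neuronal RNA-binding protein, which is nested within the span of arg. Its strongest summit was at elav, 265 bp upstream of a TSS of that gene (X:523343-523640, signal 627, with 303 in replicate 1 and 331 in replicate 2), and the others had 175, 154 and 66.8. In PAN3, the gene of a poly(A) nuclease subunit, 1 promoter summit of 592 (297 and 286) took 66.9% of the summed signal, the highest share of the 40 clusters. The sm cluster had 3 promoter summits at TSSs of sm, an hnRNP gene, and another, its strongest (193), 660 bp upstream. Moe, the gene of the cytoskeleton linker Moesin, had 4 members of 94.6 to 334. The Atat cluster held promoter summits of both Atat, a tubulin acetyltransferase gene (504), and its neighbour aay, a serine synthesis enzyme gene (556). The other clusters inside 1 gene were those of B4, atos, CG14434, CG1677, Zdhhc8 and CG42258, with signals of 75.8 to 422. The strongest summit of the CG1677 cluster (422) was 260 bp upstream of a TSS of CBP, a gene that overlaps CG1677.

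The 4 summits of CG9663 made the shortest cluster. In its introns stood 719 (379 in replicate 1 and 203 in replicate 2) and 526 (268 and 203), and in its promoter 237 (161 and 71.9) and 73.4. Each of these pairs fell into a single peak of replicate 2, so replicate 2 has only one value for each pair. At brwl the summits reached from an intron of jp, the junctophilin gene (90.3), over lncRNA:CR44149 (558, with 231 and 321) to the brwl promoter (294, with 155 and 139). Between the first and the lncRNA lay an intergenic summit of 493 (306 and 179). At Phyhd1 the promoter summit was the strongest (316, with 168 and 154) and the others had 88.0 to 141. The clusters at ckn and CG46467 were weaker, with strongest members of 111 and 158.

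Of the 11 clusters outside protein-coding genes, 7 ran over annotated long noncoding RNAs. The strongest peak of any cluster was at lncRNA:CR44619 on X, between CG4004 and Paics. It was 471 bp upstream of that TSS, rank 7 of all peaks, and its signal was 1157 (607 in the list of replicate 1 and 546 in that of replicate 2). The 4 that followed it had 480, 349, 173 and 140. On 3L, 3 intergenic clusters of 5 peaks each stood in a row. The first began 201 bp from the end of scyl, a gene that restrains TOR signalling. The second, at lncRNA:CR45251, lay 87738 bp further on, and the third, 6575 bp from CG7560, another 60991 bp on. Their strongest members had signals of 261, 368 and 444, and 4, 4 and 5 of their 5 members were in each replicate's own list. Other intergenic clusters stood 1548 bp from chinmo, a BTB zinc finger gene of neuronal timing (4 peaks, up to 257), and 5291 bp from noc, a zinc finger gene (up to 282). Another, whose last summit was 771 bp from Sidpn, a relative of deadpan, ran over the gene CG15172. Its strongest summit (162) was 521 bp upstream of the TSS of CG15172. The remaining 3 stood near Sf3b3 (up to 277), CG6191 (up to 178) and Ugt37C1 (up to 114). The pair of clusters closest to each other, in Mnt and Tlk on X, was 46485 bp apart. No member was within seq itself, where the largest run of summits within 5000 bp was 2.

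Clusters were unevenly spread over the arms. X held 12, with 64 of its 700 peaks (9.14%), and 3R held 3, with 13 of 870 (1.49%). On 2R 38 of 711 peaks were members (5.34%), on 3L 42 of 813 (5.17%), on 2L 28 of 711 (3.94%) and on chromosome 4 none of 12. Ranked peaks past the same score and signal that are absent from the conservative list were most often on 3R (64 of 106) and 2L (35), and none was on X. Their part in the difference between arms was not tested. With them put back 3R had 1 more cluster and 2L had 5 more.

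The share of promoter summits was smaller among members than among the other peaks, and that of intergenic summits was larger. A summit within 500 bp of a TSS of any transcript counted as promoter. That was 49 of 185 members (26.5%, exact 95% interval 20.3 to 33.5) against 45.3% (43.6 to 46.9) of the 3632 other peaks past the same signal. Intergenic summits made up 27.0% (20.8 to 34.0) against 14.3%, and introns 43.2% (36.0 to 50.7) against 37.4%. No test was run on these shares, since position chose the members. By size of the run the promoter share went from 47.3% (45.3 to 49.3) of lone peaks to 42.4% in runs of 2, 37.0% in runs of 3, 28.8% (20.4 to 38.6) in clusters of 4 and 23.5% (14.8 to 34.2) in larger ones. A promoter summit was still part of 30 of the 40 clusters. The strongest member was a promoter summit in 10, an intron summit in 18 and an intergenic one in 11. No member lay in a coding exon outside promoters, against 32 of the other peaks (0.881%), and 0 of 185 has an exact upper limit of 1.97%. Intervals cover counting error only.

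**Figure D4:**
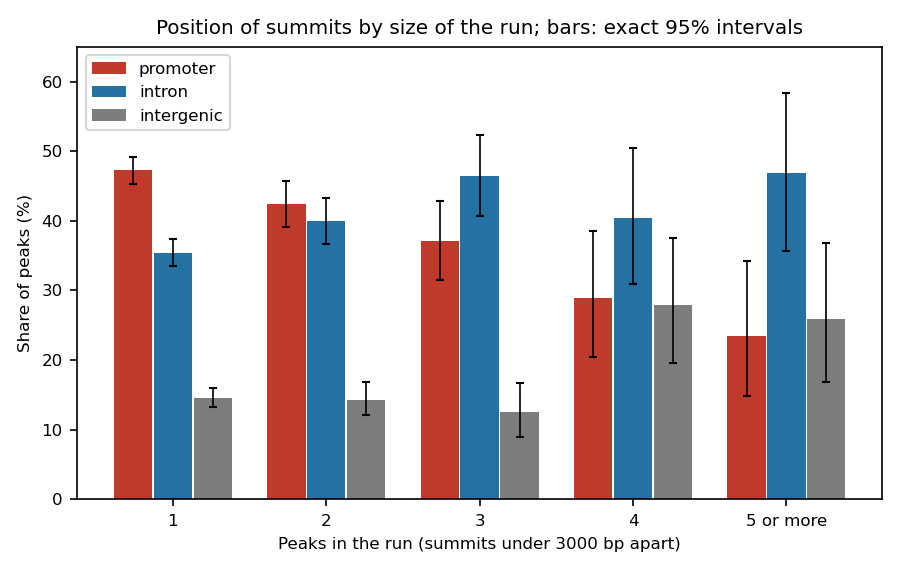
Bars give the share of peaks whose summit lies at a promoter, in an intron or between genes, by the number of peaks in the run, and error bars are exact 95% intervals. The promoter share is 47.3% for lone peaks and 23.5% in clusters of 5 or more, and the intergenic share is 14.5% and 25.9%.

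Within clusters, signals were uneven. The strongest member had a median of 36.7% of the summed signal, and in 11 clusters it was more than 2 times the next. It stood inside the run in 28 clusters and at an end in 12. The members as a whole had a median signal of 132, against 123 for the other peaks, and 11 of them were among the 100 strongest peaks of the list. Neighbouring summits were a median of 1340 bp apart, with the closest pair 199 bp apart, in CG9663. Only 10 of 145 gaps were under 500 bp. Of the members, 140 (75.7%, 68.8 to 81.7) had a width of 390 bp, against 84.9% (83.6 to 86.0) of the other peaks.

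At the edges of the rule, the weakest members had signals of 65.2, 66.8 and 67.8, and 9 conservative peaks under 60 lay inside cluster spans. The widest gap inside a cluster was 2924 bp, at Atat, and the nearest outside peak with a signal of 60 or more stood 3086 bp from the cluster near Sf3b3. Another 4 weaker peaks lay outside the spans but within 3000 bp of a cluster, and the strongest weaker peak inside or near a span had a signal of 43.8. Another 99 runs had 3 peaks, 1 short of a cluster.

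Members were looked up in the replicates' full ranked lists and in their thresholded ones. All 185 members had a value in both ranked lists, as did 3614 of the 3632 other peaks (99.5%), though 10 members shared a replicate 2 peak with a neighbour and 2 shared a replicate 1 peak. Of the members, 149 (80.5%, exact interval 74.1 to 86.0) overlapped a peak of replicate 1's own thresholded list, where 74.5% of all 3817 peaks did. For replicate 2, 121 members did (65.4%, 58.1 to 72.2), where 60.2% of all peaks did. Both lists held 105 members (56.8%, 49.3 to 64.0) against 50.5% of the other peaks, and neither held 20 (10.8%, 6.73 to 16.2) against 16.3%. In 15 clusters every member was in replicate 1's list, in 10 every member was in replicate 2's, and in 7 in both. The mtgo cluster had no member in replicate 1's list and 1 of 4 in replicate 2's, with signals of 74.9 to 102. The conservative list was made from both libraries, so neither replicate is independent of the choice of members.

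The median log2 ratio of replicate 1 to replicate 2 signal was 0.09 over the members and 0.21 over the other peaks, with members from -1.03 to 1.49. With each replicate peak counted once, the log2 ratio of summed signals per cluster ran from -0.21 near chinmo to 1.62 at CG9663, and 29 of 40 clusters had the higher sum in replicate 1. Shared replicate 2 peaks lay in 4 clusters, CG9663, ckn, l(3)neo38 and that near CG7560, where counting them once lowers the replicate 2 sum. No rescaling between the libraries is stated, so the ratio shows only how members stand relative to other peaks. In the plot of both replicates, the 15 members with a signal of 500 or more had log2 ratios from -0.47 at brwl to 0.90 at CG9663, whose replicate 2 peak is shared.

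**Figure D5:**
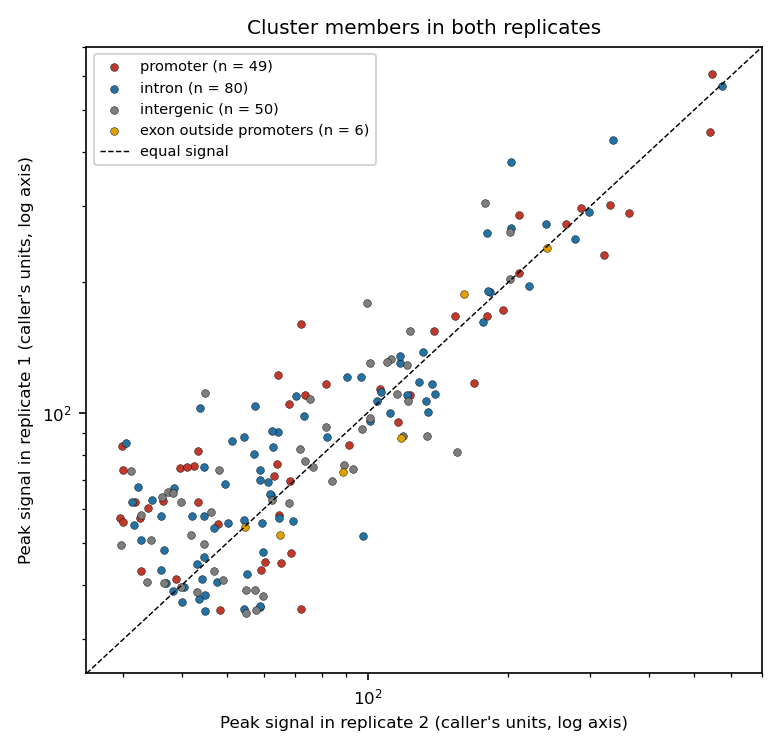
Each point is 1 of the 185 members, with the authors' signal in replicate 2 on the x axis and in replicate 1 on the y axis (caller's units, log axes) and colour for the position of the summit. The dashed line marks equal signal. Members range from 29.5 to 574 in replicate 2 and from 34.4 to 607 in replicate 1.

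The shares of short DNA words differed between members and other peaks for some words and windows, and were close for others. GAGAGA, the element of GAGA factor, was within 50 bp of 13 member summits (7.03%, 3.79 to 11.7), where 7.49% of all peaks had it, and within 25 bp of 2 (1.08%, 0.131 to 3.85) against 3.61% (3.02 to 4.27) of the other peaks. The 13 within 50 bp were in 12 clusters, and only Raf had 2. Within 200 bp GAGAGA was at 60 members (32.4%, 25.7 to 39.7) against 28.3% of the other peaks. In the Trl cluster 1 of 5 members had it within 50 bp. That was a promoter summit of CG42507, a gene that overlaps Trl (signal 104). The promoter summit of Trl (236) and the dominant summit (1132) did not have it within 50 bp. ACAGTG, a word singled out in earlier work on these peaks, was within 50 bp of 16 members (8.65%, 5.02 to 13.7), where 6.94% of all peaks had it, and within 25 bp of 10 (5.41%, 2.62 to 9.72) against 2.70% (2.20 to 3.28) of the other peaks. AGATAA was within 25 bp of 3 members (1.62%, 0.336 to 4.67) against 4.10% (3.48 to 4.80), and within 50 bp of 4.86% against 7.98%. Within 200 bp AGATAA was at 20.5% of members against 22.7% of the other peaks, and ACAGTG at 33.0% against 29.5%. TAATTA was within 50 bp of 7.57% of members against 8.51% of the other peaks, and CAGGTA of 2.70% against 1.98%. In the same window CAGGTG was at 2.70% against 2.45% and CAGCTG at 4.86% against 3.72%. TATCGATA, the DRE core of housekeeping promoters, was within 50 bp of 0 of 185 members, with an upper limit of 1.97%, and of 0.633% of the others. Within 200 bp it was at 2 members (1.08%, 0.131 to 3.85) against 3.14% (2.60 to 3.76). CACACA was within 200 bp of 90 members (48.6%, 41.2 to 56.1) against 37.5% (35.9 to 39.1), and within 50 bp of 7.03% against 9.06%. Windows of close neighbours overlap at 200 bp, and no test was run on these shares. A word in a window is a description and not a binding site.

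The windows below hold these words. For GAGAGA the 4 strongest members that have it are shown, 50 bp either side of the summit on the plus strand, with GAGAGA or its reverse complement in capitals. They were chrX:2297671-2297771 (Raf, signal 590), chr2L:14502741-14502841 (near noc, 282), chr2L:3303203-3303303 (CG9663, 237) and chrX:2302291-2302391 (Raf, 219).
Raf, 590: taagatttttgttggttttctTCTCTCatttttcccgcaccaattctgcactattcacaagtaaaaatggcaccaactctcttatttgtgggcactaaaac
near noc: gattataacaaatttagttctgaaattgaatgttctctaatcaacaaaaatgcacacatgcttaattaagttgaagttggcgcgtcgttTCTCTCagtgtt
CG9663: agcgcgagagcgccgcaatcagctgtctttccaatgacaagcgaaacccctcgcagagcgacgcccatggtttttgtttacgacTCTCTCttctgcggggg
Raf, 219: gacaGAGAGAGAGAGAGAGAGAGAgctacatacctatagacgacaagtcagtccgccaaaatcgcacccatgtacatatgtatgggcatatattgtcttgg
The second Raf window has a long GA repeat at its left end, and the other 3 have a short match.

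For ACAGTG, 7 of the 10 members with the word within 25 bp of the summit are shown on the strand that reads ACAGTG, in capitals. The other 3, at sm (193), atos (143) and ckn (98.5), are not shown because of their chromosome arm, not their values. They were chrX:12752353-12752403 (lncRNA:CR44619, plus strand, signal 480), chr3L:11418558-11418608 (near CG7560, minus, 312), chrX:6854761-6854811 (CG14434, minus, 126), chrX:9352929-9352979 (Zdhhc8, minus, 101), chr3R:10684476-10684526 (Phyhd1, minus, 96.6), chrX:7703695-7703745 (CHES-1-like, plus, 96.4) and chr2L:19019355-19019405 (near Sidpn, minus, 73.2).
lncRNA:CR44619: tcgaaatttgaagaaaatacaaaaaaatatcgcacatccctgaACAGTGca
near CG7560: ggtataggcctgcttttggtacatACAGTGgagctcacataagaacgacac
CG14434: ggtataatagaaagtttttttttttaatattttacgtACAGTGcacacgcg
Zdhhc8: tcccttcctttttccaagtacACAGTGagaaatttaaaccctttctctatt
Phyhd1: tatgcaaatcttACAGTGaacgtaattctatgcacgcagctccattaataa
CHES-1-like: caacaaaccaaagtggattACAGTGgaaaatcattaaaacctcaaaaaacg
near Sidpn: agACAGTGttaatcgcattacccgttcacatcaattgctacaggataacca
The word stood at differing distances from the summit in these 7 windows.

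Of 331 listed protein-coding genes in 20 lists, 4 held a cluster (1.21%): Trl, ph-p, ken and Krn. Polycomb and Trithorax group genes had 2 of 25 (Trl and ph-p), BTB zinc finger genes 2 of 14 (Trl and ken) and EGF receptor pathway genes 1 of 13 (Krn), against 0.208% of all protein-coding genes. Only a gene with a summit can hold a cluster, and 29 of the 1528 protein-coding genes with at least 1 summit did. How many listed genes have a summit is not given here, so no excess is read from these counts. No cluster was held by the listed gap (0 of 9), pair-rule (0 of 8), segment polarity (0 of 16), Hox (0 of 8), homeobox (0 of 51), T-box (0 of 8), GATA (0 of 6), Snail (0 of 4), Sox (0 of 4), proneural and neuroblast (0 of 18), Notch (0 of 15), Dpp (0 of 15), ecdysone response (0 of 14) or head patterning genes (0 of 8). The axon guidance and adhesion list, the process in which Sequoia is known to act, had 0 of 39, cytoplasmic ribosomal protein genes 0 of 45 and odorant and gustatory receptor genes 0 of 21. With so low a share over all genes, nothing is read from a count of 0.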

How the data were processed

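The authors deposited peak lists on dm6 from 2 ChIP-seq libraries, and the labels name 1 possible control experiment. No source used here gives the peak caller. Signal is the deposited value of that caller, and the deposited score rises as the irreproducible discovery rate falls, with no score under 830 in the conservative list. Read depth is unknown. Replicate values came from each replicate's own ranked list, as the strongest peak over the member's summit (else the strongest that overlaps by 1 bp). Another 8 columns of the ranked list of both replicates were not used.

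Summits were set against Ensembl release 115 (BDGP6.54), leaving out transposable elements, and sequences were read from RefSeq Release 6 of the same assembly. Coordinates count from 1. Shares carry exact Clopper-Pearson 95% intervals. The cluster search was checked on simulated peaks. Scripts ran in Python 3.11.15 (pandas 2.3.3, numpy 2.4.6, scipy 1.17.1), and figures were drawn in matplotlib 3.10.9.

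Members, gene lists and the word ACAGTG were chosen with earlier results of these data known. Named by rule were clusters of 5 or more peaks, then those of 4 by summed signal to 30, the longest, tightest and intergenic ones, list members and seq. Others, such as mtgo, kirre, ush, bun and Antp, were named after their values were seen.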

Additional observations from a re-analysis of the deposited data

Results flagged for a closer look

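Ranked peaks that pass the same score and signal but are absent from the conservative list, 106 in all, formed 6 further clusters together with their neighbours when put back, and these enter no value above other than the counts per arm. They had 4 peaks at CG4297, 4 at COX7AL2, 5 at Pgk, a glycolysis enzyme gene, 6 near Rh5, 4 in crp and 5 in Kdm2, a histone demethylase gene. All members near Rh5, in crp and in Kdm2 were such absent peaks, as were 4 of 5 at Pgk and 2 of 4 at each of CG4297 and COX7AL2. Their signals lay between 70.3 and 499. They were picked out because the conservative list gives them no value, and why they are absent was not tested.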

How the results depend on the processing

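The number of clusters followed every choice in the rule. It was 40 as reported, 6, 21 and 82 with joining distances of 1000, 2000 and 5000 bp, 139 and 14 with at least 3 or 5 peaks, 11 at a signal of 100 or more and 71 in the thresholded list from pooled replicates. It was 60 with no signal cut and 46 with absent peaks put back. Leaving out a replicate gave 5 to 15 at the same signal cut, though signals were lower in the replicates' lists (member medians of 75.1 and 64.0 against 132), and without a signal cut (chosen after seeing the data) 57 in replicate 1's own list and 23 in replicate 2's. Of the 40 clusters, 31 were found again in the pooled list, 9 in replicate 1's list and 4 in replicate 2's, or 21 and 15 without a signal cut. The share of clusters inside 1 gene was 37.5%, and 0%, 54.5% and 65% at 1000 bp, a signal of 100 and genes widened by 3000 bp, 20% to 53.3% with a replicate left out and 56.5% in replicate 2's list without a cut. The promoter share of members was 20% at 2000 bp, 35.6% with no signal cut, 36.9% in replicate 1's list without a cut, 12.4% and 43.2% for windows of 200 and 1000 bp, and 16.7% to 25% with a replicate left out. GAGAGA was within 50 bp of 7.03% of member summits as reported, and of 6.94% to 8.33% with a replicate left out. With the wider window of 200 bp it was at 32.4%. By nearest TSS, 2 listed genes held a cluster. The causes were not tested. The shares found in each replicate's list stayed within their intervals under both other overlaps. No paired analysis was possible because there is 1 group. Read depth is unknown, so its effect was not tested.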
